A study of Mus musculus with 12 samples.

Results

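The comparison asks what distinguished the hippocampus on postnatal day 15 in mice that had met lipopolysaccharide (LPS) on day 3 and received only saline afterwards. LPS is a bacterial cell wall component that sets off innate immunity. The groups are LS, given LPS at 5 mg/kg under the skin on day 3 and saline into the abdomen on day 14, and SS, given saline on both days. Each held 3 animals, so 6 of the 12 libraries of the series are compared. All animals were C57BL/6J, an inbred laboratory strain with no engineered allele in the labels, and hippocampi were dissected on day 15, 24 h after the day 14 injection. Every SS animal had thus been injected on both days, and no uninjected animal is among the groups. The other 6 animals received LPS on day 14, after saline (SL) or LPS (LL) on day 3. All genes of the table were considered: 54532 were listed and 17687 were tested.

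Microglia, the resident macrophages of the brain, carry receptors for bacterial products and clear debris, and they are still maturing in the early postnatal period. Complement C1q, which starts the classical complement pathway, is made in the brain mostly by these cells and takes part in synapse removal. Myelin is laid down by oligodendrocytes during the same weeks. The choroid plexus, a secretory epithelium that makes cerebrospinal fluid, lies against the hippocampus in the ventricle.

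The 6 libraries held 16979666 to 20012420 fragments in listed genes, against 16979666 to 24105022 over all 12. Values are FPKM, which divide fragments by gene length and by library size, and 1 fragment in a gene of 1 kb was worth 0.0492 to 0.0587 FPKM. Differences are given as LS minus SS on the log2(FPKM + 0.5) scale, which understates changes of low genes, and a gene was called at a limma adjusted p below 0.05. Markers of hippocampal neurons were present in all 6 libraries, among them Neurod6 at 87.5 to 109 FPKM and Prox1 at 20.4 to 29.3 FPKM. Of 18 tested hippocampal neuron markers 0 were called by limma, with 1 at an unadjusted p below 0.05, and their median difference was -0.02. LS replicates 2 and 3 stood apart from the other 4 libraries in choroid plexus transcripts, described further on. Xist and Y-linked transcripts put both sexes in both groups, with 2 of 3 SS animals and 1 of 3 LS animals female.

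Hippocampi of LS had higher levels of genes of macrophages and microglia, among them Adgre1, Lyz2, Spi1, Aif1, Ctss, C1qa and C1qc, and lower levels of genes that include Defb11 and Calml4 of the choroid plexus and Fxyd1. Limma called 55 genes, 0.311% of those tested. Of these, 26 were higher in LS (0.147%) and 29 were lower (0.164%), and 24 and 22 of them were protein coding. The higher genes had a median difference of 0.68, and the 24 protein-coding ones ranged from 0.22 for Mllt1 to 1.05 for Adgre1, while the lower genes had a median of -0.81 and ranged from -4.07 to -0.35. Unadjusted p lay below 0.05 for 2230 of the 17687 tested genes, which is the background for such counts in the lists below. The number of called genes was 11, 6 and 5 without SS replicates 1, 2 and 3, and 205, 10 and 7 without LS replicates 1, 2 and 3. Leaving out SL replicate 2 gave 32 and leaving out LL replicate 1 gave 36, although these libraries enter only the estimate of the spread. It was 0 when only SS and LS were fitted, where 2079 genes had an unadjusted p below 0.05.

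Adgre1 encodes F4/80, the adhesion receptor that serves as the standard surface marker of mouse macrophages (chromosome 17, 57358691 to 57483527, mm10). It was at 1.90, 1.54 and 2.22 FPKM in SS replicates 1 to 3 and at 4.69, 3.82 and 4.78 FPKM in LS replicates 1 to 3. Every LS library was above every SS library, with a difference of 1.05 (SE 0.11, limma adjusted p = 0.00767). In whole tissue, more cells of a type and more RNA per cell cannot be told apart.

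Cathepsin S (Ctss, chromosome 3, 95526786 to 95556403) is a lysosomal protease of antigen-presenting cells that degrades the class II invariant chain. It was at 19.4, 20.4 and 18.7 FPKM in SS and 28.9, 27.4 and 29.2 FPKM in LS, so the groups were well apart and tight (difference 0.54, SE 0.06, limma adjusted p = 0.00827). The pseudogene Hmgb1-ps5 overlaps Ctss on the same strand. Lyz2, the lysozyme of macrophages, was at 3.08, 2.51 and 2.55 FPKM in SS and 6.76, 4.95 and 5.20 FPKM in LS (0.93, SE 0.11, adjusted p = 0.0103). All 3 LS libraries were above SS, replicate 1 the most, and reads may be shared with the closely related Lyz1. Adgre1, Ctss and the lower gene Fxyd1 were called in all 12 leave-one-out fits, while Lyz2 was not called when SS replicate 2 or SS replicate 3 was left out. Each of the other called genes lost its call in at least 1 of these fits.

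Spi1 encodes PU.1, the transcription factor that sets up the myeloid lineage. It was at 1.55, 1.25 and 1.59 FPKM in SS and 2.57, 3.69 and 2.70 FPKM in LS (0.82, SE 0.12, limma adjusted p = 0.0217), with no overlap and the highest value in LS replicate 2. Aif1, which encodes the microglial marker IBA1, was at 2.45, 2.34 and 1.70 FPKM against 3.47, 3.99 and 3.72 FPKM (0.68, SE 0.11, adjusted p = 0.0316). Adgre1, Ctss, Lyz2, Spi1 and Aif1 were the 5 called among 17 tested genes of the macrophage and microglia lineage, and none of the 17 was called lower. Of the 17, 12 lay above SS in all 3 LS libraries and 1, Cd53, lay below, where 9.36% and 8.63% of all tested genes did so. Their median difference was 0.32, and it was 0.29, 0.32 and 0.32 in LS replicates 1 to 3 taken singly against the SS mean. The summed level of the list was 107 to 114 FPKM in SS and 143 to 145 FPKM in LS.

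**Figure D1:**
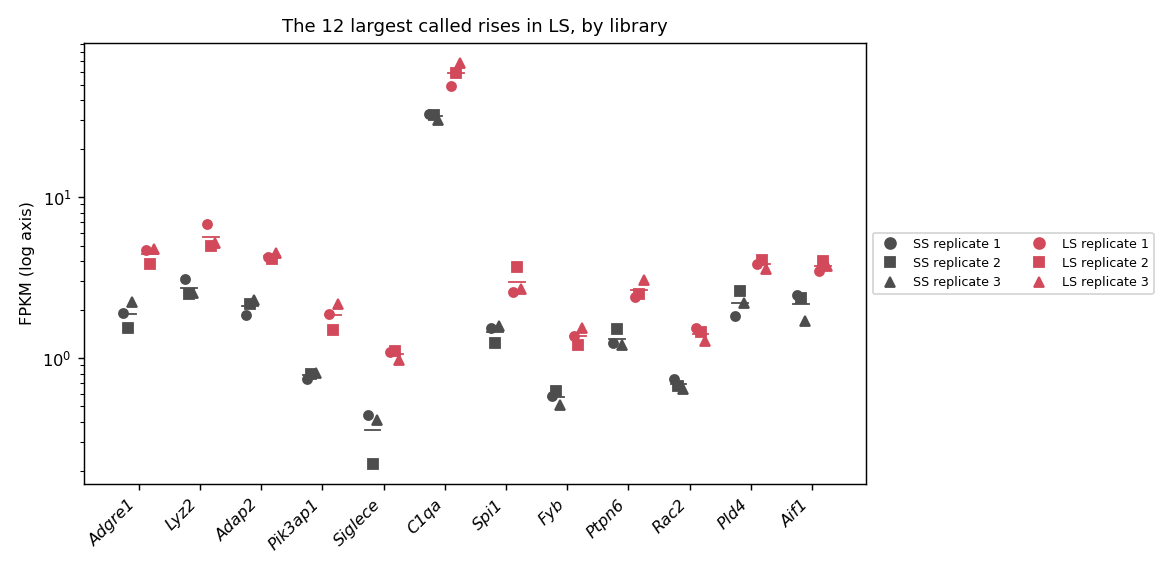
Level in FPKM, on a log axis, of the 12 protein-coding genes with the largest called rises and a mean of at least 1 FPKM in either group, in each SS library (grey) and LS library (red), with the group mean as a bar. All 3 LS libraries lie above all 3 SS libraries for each of the 12 genes.

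Complement C1q is a hexamer of trimers whose chains are encoded by C1qa, C1qb and C1qc. C1qa was at 32.8, 32.2 and 30.2 FPKM in SS and 48.8, 58.6 and 68.3 FPKM in LS (0.86, SE 0.13, limma adjusted p = 0.0248). C1qc was at 15.2, 14.1 and 14.1 FPKM in SS and 21.8, 21.8 and 23.9 FPKM in LS (0.62, SE 0.08, adjusted p = 0.0178). C1qb was at 25.6, 27.7 and 21.8 FPKM in SS and 33.9, 34.7 and 35.2 FPKM in LS, also without overlap, and did not pass the test (0.47, SE 0.13, adjusted p = 0.152). All 3 chains were thus above SS in every LS library, and C1qa was highest in LS replicate 3. Of 18 tested classical complement genes and regulators, 2 were called higher and 1 was called lower. The lower one was Cd59a, an inhibitor of the membrane attack complex, at 3.05, 3.36 and 3.35 FPKM in SS and 1.96, 1.86 and 1.59 FPKM in LS (-0.71, SE 0.12, adjusted p = 0.0496).

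Several called genes act in receptor signalling of myeloid cells. Siglece, an inhibitory receptor for sialic acids, was low in SS at 0.445, 0.219 and 0.410 FPKM and reached 1.09, 1.10 and 0.969 FPKM in LS (0.87, SE 0.12, limma adjusted p = 0.0178). Ptpn6, the phosphatase SHP-1 that such inhibitory receptors recruit, was at 1.24, 1.51 and 1.20 FPKM against 2.40, 2.50 and 3.04 FPKM (0.79, SE 0.09, adjusted p = 0.0103). Both were without overlap, and LS replicate 3 had the highest Ptpn6. The adaptors Pik3ap1, which couples receptors to phosphoinositide 3-kinase, and Fyb, a leukocyte adhesion adaptor, rose by 0.87 and 0.80 (adjusted p = 0.0178 and 0.0103). Adap2, a regulator of Arf GTPases, rose from 1.84, 2.17 and 2.31 FPKM in SS to 4.24, 4.12 and 4.47 FPKM in LS (0.88, adjusted p = 0.0290). Adap2 overlaps the antisense gene Adap2os, whose reads cannot be told apart if strand was not counted.

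Rac2, the GTPase that activates the phagocyte oxidase, was at 0.738, 0.672 and 0.646 FPKM in SS and 1.54, 1.44 and 1.28 FPKM in LS (0.69, SE 0.08, limma adjusted p = 0.0103). It was the 1 call among 14 tested Fc gamma receptor and phagocyte oxidase genes. Of these, 8 lay wholly above SS and 0 wholly below (all tested genes: 9.36% and 8.63%), with a median difference of 0.35. They included the oxidase subunits Cyba at 4.07, 5.02 and 3.86 FPKM against 5.92, 6.17 and 6.53 FPKM and Ncf1 at 1.76, 1.61 and 1.33 FPKM against 2.16, 2.20 and 2.33 FPKM, neither of which passed the test (adjusted p = 0.0709 and 0.0576). Pld4, an endolysosomal nuclease, was at 1.83, 2.61 and 2.19 FPKM in SS and 3.82, 4.08 and 3.56 FPKM in LS and was called (0.68, adjusted p = 0.0345).

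Other genes were called outside the rule for named genes and were picked for mention after their values were seen. The myeloid kinase Fes (0.62), the endosomal receptor chaperone Unc93b1 (0.54) and the pore-forming Mpeg1 (0.42) were higher in LS, with limma adjusted p of 0.0409, 0.0496 and 0.0291. Fes was at 0.474, 0.628 and 0.662 FPKM in SS and 1.02, 1.25 and 1.25 FPKM in LS. The call of Unc93b1 ended in each of the 12 fits that left out a library. Genes with no particular tie to macrophages were higher too, by 0.22 to 0.47: Mllt1, Sdc3, Cav1, Shld1, Rac3 and Lsm11. A further 2 higher calls, Mir6946 and Gm25736, are short genes that had 0 fragments in each SS library and 1 to 4 fragments in each LS library. These 2 genes lie inside Sec24c and Tmeff2 and rest on too few fragments to give a fold.

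Promoter windows of RefSeq on GRCm38.p6, from 250 bases before to 50 bases after the gene start, are shown for 3 higher genes with matches to the core of the PU.1 motif, since Spi1 itself was higher, and for Lyz2 as a higher gene without one. The core GAGGAA was searched on both strands, so a reverse match reads TTCCTC, and it overlaps the GGAA core shared by other ETS factors. Capitals mark the matches. The windows are chr3:95526536-95526835 for Ctss on the plus strand, and chr4:136892865-136893164 for C1qc, chr17:35176003-35176302 for Aif1 and chr10:117282223-117282522 for Lyz2 on the minus strand. Each is printed 5′ to 3′ along its gene.
Ctss: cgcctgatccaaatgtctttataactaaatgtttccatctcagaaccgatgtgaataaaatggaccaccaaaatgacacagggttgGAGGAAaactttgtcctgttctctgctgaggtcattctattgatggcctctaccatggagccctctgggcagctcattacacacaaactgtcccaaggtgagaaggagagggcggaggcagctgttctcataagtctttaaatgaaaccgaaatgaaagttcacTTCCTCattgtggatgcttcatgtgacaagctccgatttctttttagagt
C1qc: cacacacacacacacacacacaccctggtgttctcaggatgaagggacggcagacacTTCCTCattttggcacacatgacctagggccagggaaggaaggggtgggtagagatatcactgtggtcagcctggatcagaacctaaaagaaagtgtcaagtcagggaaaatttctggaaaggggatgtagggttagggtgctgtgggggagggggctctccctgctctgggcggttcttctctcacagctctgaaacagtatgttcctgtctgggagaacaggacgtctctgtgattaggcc
Aif1: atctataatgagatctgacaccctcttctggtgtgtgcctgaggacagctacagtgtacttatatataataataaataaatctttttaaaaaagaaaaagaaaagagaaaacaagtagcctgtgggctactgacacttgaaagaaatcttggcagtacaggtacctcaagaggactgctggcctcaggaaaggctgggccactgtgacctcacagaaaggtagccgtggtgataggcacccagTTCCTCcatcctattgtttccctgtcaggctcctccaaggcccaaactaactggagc
Lyz2: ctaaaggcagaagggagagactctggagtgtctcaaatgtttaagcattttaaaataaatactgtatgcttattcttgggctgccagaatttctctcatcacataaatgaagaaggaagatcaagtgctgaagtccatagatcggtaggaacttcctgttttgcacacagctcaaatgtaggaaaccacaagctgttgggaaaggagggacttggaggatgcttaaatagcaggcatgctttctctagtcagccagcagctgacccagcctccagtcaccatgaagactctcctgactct

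Ctss holds 1 match on each strand, C1qc and Aif1 hold 1 reverse match each, and Lyz2 holds 0. Of the 26 higher genes, 18 had a promoter in the RefSeq table, and 9 of the 18 held the core. Of the 29 lower genes, 18 had a promoter and 7 of the 18 held it. The core was in 26.6% of 11568 promoters of tested genes and in 27.7% of 20449 promoters of listed genes. A match of 6 letters is a description of the sequence and was not tested as a binding site.

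Genes that mark resting microglia had values on both sides of SS. Of 15 tested homeostatic microglia genes limma called 0 (7 had an unadjusted p below 0.05), and their median difference was 0.07. Members went both ways, with 6 wholly above SS and 4 wholly below (all tested genes: 9.36% and 8.63%). P2ry12, the purinergic receptor that guides microglial processes, was at 14.6, 13.9 and 13.5 FPKM in SS and 10.2, 12.2 and 9.94 FPKM in LS (-0.37, SE 0.13, adjusted p = 0.289). Tmem119, a surface marker of microglia, was at 8.12, 8.23 and 7.93 FPKM in SS and 9.75, 10.8 and 12.5 FPKM in LS (0.42, SE 0.13, adjusted p = 0.201). P2ry12 was lower and Tmem119 higher in every LS library, and neither passed the test.

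Csf1r, the growth factor receptor that microglia need to survive, was at 17.1, 17.3 and 15.2 FPKM in SS and 19.8, 20.8 and 21.4 FPKM in LS (0.31, adjusted p = 0.0776). Cx3cr1, the fractalkine receptor, was at 11.0, 10.98 and 9.46 FPKM against 12.2, 12.6 and 12.97 FPKM (0.26, adjusted p = 0.284). Both were without overlap and not called. Trem2, a lipid receptor tied to microglial activation, was at 2.45, 1.78 and 2.22 FPKM against 2.52, 2.84 and 3.10 FPKM, where only a small gap separated the groups (0.33, adjusted p = 0.483). Of 16 tested damage-associated microglia genes limma called 0 (5 at an unadjusted p below 0.05), with a median of -0.01.

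Lists of blood-derived cells and of border macrophages had summed levels below that of the macrophage and microglia lineage in all 6 libraries. Single members reached the level of called genes. Stab1 was at 2.39, 2.44 and 2.75 FPKM in SS and 3.54, 3.18 and 3.52 FPKM in LS, and Spi1 at 1.25 to 3.69 FPKM over both groups. Of 10 tested neutrophil markers 0 were called (1 at an unadjusted p below 0.05), and S100a8 was at 0.508, 0.334 and 0.390 FPKM in SS and 0.425, 0.716 and 0.704 FPKM in LS, with overlap. The summed level of the neutrophil list was 2.77 to 4.05 FPKM in SS and 4.20 to 4.97 FPKM in LS, and the member without overlap was the cytokine receptor Csf3r, at 1.53, 1.40 and 1.22 FPKM against 2.10, 1.86 and 1.85 FPKM. The defining markers Ly6g, Mpo and Ltf were below the filter. In SL, whose libraries also count for the filter, the neutrophil list summed to 124.5 to 247.2 FPKM. Some members may thus have been tested only for their level there. Of 6 tested monocyte markers 0 were called (0 at an unadjusted p below 0.05), Ccr2 and Ly6c2 were below the filter, and the summed level was 10.5 to 14.1 FPKM in SS and 11.95 to 14.7 FPKM in LS. Of 15 lymphocyte markers 12 were below the filter, and Cd3d, Cd3g, Cd8b1, Nkg7 and Gzma were at 0 in all 6 libraries. The summed level of the lymphocyte list was 1.13 to 1.57 FPKM in SS and 1.71 to 3.14 FPKM in LS. It was raised in part by the B cell receptor component Cd79b, at 0.164, 0.121 and 0.0757 FPKM against 0.378, 1.22 and 0.797 FPKM (1.01, limma adjusted p = 0.167). Of 7 tested border macrophage markers 0 were called (2 at an unadjusted p below 0.05). Stab1 (0.37) lay wholly above SS, and Lyve1 (-0.65) and Cbr2 (-0.39) lay wholly below. The summed level of the border macrophage list was 8.36 to 11.2 FPKM in SS and 8.54 to 9.63 FPKM in LS. The part of these cells in the higher genes was not tested.

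Inflammatory mediators gave no calls. Limma called 0 of 24 tested NF-kB targets and inflammatory mediators (4 at an unadjusted p below 0.05), with a median difference of 0.12, and 22 of the 24 differences were above 0. Of the 24, 7 lay wholly above SS and 0 wholly below (all tested genes: 9.36% and 8.63%). Il1b was at 0.185, 0.0304 and 0.0284 FPKM in SS and 0.155, 0.130 and 0.0854 FPKM in LS, Tnf at 0, 0 and 0.0330 FPKM and 0.120, 0.0909 and 0.0331 FPKM, and Cxcl10 at 0.0522, 0.0515 and 0 FPKM and 0.197, 0.110 and 0.0241 FPKM. These levels rest on few fragments, and adjusted p were 0.855, 0.671 and 0.724. Limma also called 0 of 16 chemokines, 0 of 15 acute-phase genes, 0 of 33 type I interferon-stimulated genes and 0 of 19 class I antigen presentation genes, with 1, 1, 2 and 4 at an unadjusted p below 0.05. Of the 19 class I genes 5 lay wholly above SS, among them B2m, H2-K1 and H2-D1, and 0 wholly below. Of the chemokines, acute-phase genes and interferon-stimulated genes 0 lay wholly above SS, and 2, 1 and 4 lay wholly below. The filter counts all 12 libraries, so some members were tested for their level after LPS on day 14 while near 0 in SS and LS. Cxcl10, for example, was at 31.3, 36.7 and 26.7 FPKM in SL. With 0.5 added to each value such members could hardly be called, and their lack of calls does not show that no difference exists. Lcn2, an acute-phase carrier of bacterial siderophores, was at 0.403, 0.0663 and 0.0826 FPKM in SS and 1.29, 0.189 and 0.207 FPKM in LS, where replicate 1 alone was above SS (0.52, SE 0.47, adjusted p = 0.710).

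Receptors that sense LPS differed in their values. Cd14, the co-receptor that hands LPS to its signalling receptor, was at 1.20, 1.14 and 1.07 FPKM in SS and 2.31, 1.71 and 2.62 FPKM in LS, with every LS library above SS (0.72, SE 0.13, limma adjusted p = 0.0559). Tlr4, the signalling receptor, was at 0.243, 0.208 and 0.273 FPKM in SS and 0.248, 0.152 and 0.293 FPKM in LS, with overlap (-0.02, adjusted p = 0.964). The sign of the Tlr4 difference flips when SS replicate 3 or LS replicate 2 is left out. Of 19 tested innate receptors 0 were called (5 at an unadjusted p below 0.05). Of the 19, 5 lay wholly above SS and 1 wholly below (all tested genes: 9.36% and 8.63%).

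Gfap, the intermediate filament of astrocytes, was at 88.8, 87.9 and 84.97 FPKM in SS and 111, 98.3 and 113 FPKM in LS, without overlap and not called (0.30, SE 0.13, limma adjusted p = 0.367). Of 32 tested reactive astrocyte genes limma called 0 (4 at an unadjusted p below 0.05), with a median of 0.08. Of 18 tested homeostatic astrocyte genes limma called 0 (5 at an unadjusted p below 0.05), with a median of -0.02. Among them Fabp7, a fatty acid binding protein of radial glia and immature astrocytes, was picked for mention after its values were seen. It was at 50.1, 47.3 and 49.2 FPKM in SS and 72.7, 70.1 and 71.4 FPKM in LS, without overlap, and did not pass the test, in which the spread is estimated over all 4 groups (0.54, SE 0.15, adjusted p = 0.167).

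Choroid plexus transcripts had lower values in LS and differed widely among its 3 libraries. Transthyretin (Ttr), the thyroid hormone carrier that this epithelium secretes, was at 2455, 2093 and 2299 FPKM in SS and 1087, 47.7 and 14.9 FPKM in LS. LS replicate 1 was below the SS libraries, and replicates 2 and 3 were far below replicate 1. The difference of -4.61 had an SE of 1.12 and was not called (limma adjusted p = 0.107). All 20 listed choroid plexus genes lay below SS in all 3 LS libraries, with a median difference of -1.999. Taken singly against the SS mean, the median was -0.66 in LS replicate 1, -2.54 in replicate 2 and -2.68 in replicate 3. Whether this follows the day 3 injection or how much choroid plexus came with each dissected hippocampus was not tested.

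Of the 20 genes 2 were called. Defb11, a defensin (chromosome 8, 21905376 to 21906412), was at 16.9, 16.4 and 16.4 FPKM in SS and 3.72, 0 and 0 FPKM in LS. These values stand for 91, 90 and 96 fragments in SS and 24, 0 and 0 in LS, so LS replicates 2 and 3 were listed at 0 (-4.07, SE 0.63, limma adjusted p = 0.0291). Calml4, a calmodulin-like protein, was at 2.95, 2.26 and 2.47 FPKM in SS and 1.16, 0.300 and 0.238 FPKM in LS (-1.62, SE 0.26, adjusted p = 0.0344), and it overlaps Gm10653. The folate receptor Folr1 was at 13.2, 10.7 and 11.7 FPKM in SS and 5.69, 0.476 and 0.284 FPKM in LS (-2.88, SE 0.60, adjusted p = 0.0721). Klotho (Kl), an endocrine co-receptor, was at 7.84, 6.42 and 7.49 FPKM against 3.98, 0.868 and 0.966 FPKM (-1.89, adjusted p = 0.0619), and the lysophospholipase Enpp2 at 240.2, 177 and 193 FPKM against 93.05, 17.5 and 16.9 FPKM (-2.72, adjusted p = 0.0582). For each of these genes LS replicate 1 lay between SS and the other 2 LS libraries. The bicarbonate transporter Slc4a5 and Mfrp, a frizzled-related membrane protein, had the same order, with differences of -2.22 and -2.42 (both adjusted p = 0.0576).

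**Figure D2:**
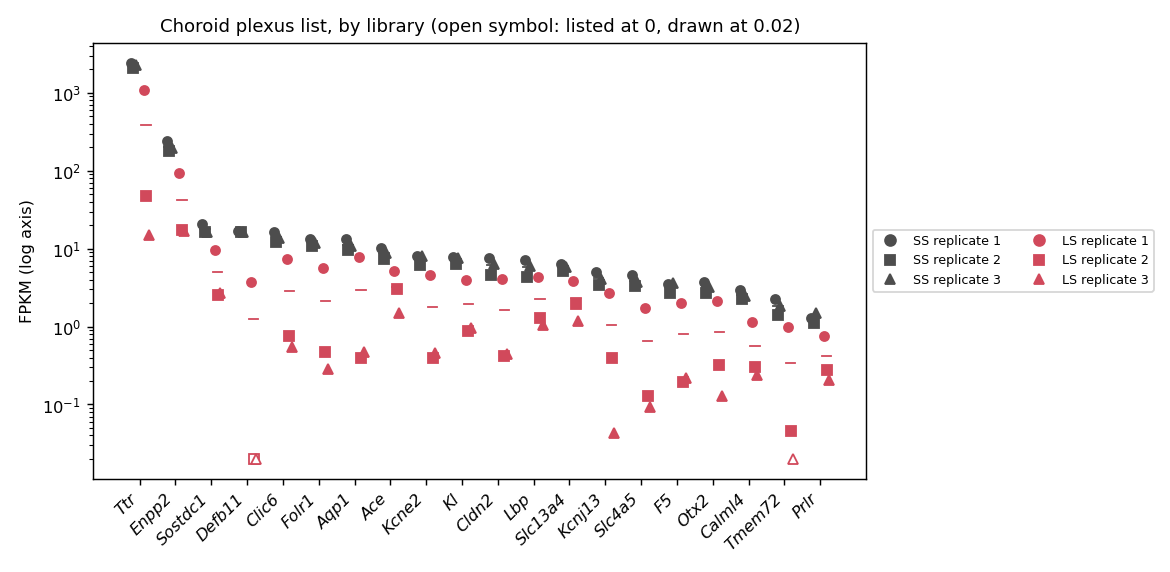
Level in FPKM, on a log axis, of the 20 choroid plexus genes in each SS library (grey) and LS library (red), ordered by SS mean, with group means as bars and open symbols for genes listed at 0. LS replicate 1 (circles) lies below SS for each gene, and replicates 2 and 3 lie below replicate 1.

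Markers of other tissue that borders the hippocampus gave no calls. Of 11 tested genes of ependyma and motile cilia limma called 0 (3 at an unadjusted p below 0.05). Of the 11, 1 lay wholly below SS, near the share of all tested genes (8.63%). Differences were below 0 for 10 of the 11, against 8610 of 17687 tested genes. The median was -0.22, and it was 0.07, -0.53 and -0.42 in LS replicates 1 to 3, so replicate 1 was again apart from replicates 2 and 3. Markers of thalamus and habenula (9 tested), neocortex (11) and striatum neurons (9) had 0 calls, with 1, 0 and 1 at an unadjusted p below 0.05 and medians of 0.06, -0.08 and 0.00. Meningeal fibroblast markers (16) had 0 calls, 1 at an unadjusted p below 0.05 and a median of -0.03.

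Fxyd1 encodes phospholemman, a small regulator of the sodium pump that choroid plexus and astrocytes express. It was the lower gene with the smallest adjusted p, at 21.9, 17.9 and 20.2 FPKM in SS and 11.04, 8.50 and 9.76 FPKM in LS (-0.999, SE 0.10, limma adjusted p = 0.00767; chromosome 7, 31051678 to 31057199). All 3 LS libraries were low, with differences from the SS mean of -0.82, -1.18 and -0.99 in replicates 1 to 3, so replicate 1 was nearest to SS. Other called genes had low values in all LS libraries too. The metalloreductase family member Steap1 was at 3.50, 3.41 and 2.48 FPKM in SS and 1.21, 0.216 and 0.276 FPKM in LS (-1.87, adjusted p = 0.0345), and the retinoid transporter Abca4 at 1.73, 1.33 and 1.41 FPKM against 0.650, 0.178 and 0.190 FPKM (-1.28, adjusted p = 0.0420). In both, LS replicate 1 was nearest to SS. Pon3, a lactonase, was at 1.42, 1.15 and 1.41 FPKM against 0.726, 0.528 and 0.433 FPKM (-0.79, adjusted p = 0.0248). In Pon3 too, LS replicate 1 was nearest to SS.

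The anion exchanger Slc4a2 fell by 0.81, the secreted phospholipase Pla2g5 by 1.18, the cytochrome oxidase subunit Cox6b2 by 0.90 and the endoplasmic reticulum peroxidase Gpx8 by 0.84 on the log2 scale (limma adjusted p = 0.0290, 0.0496, 0.0375 and 0.0344). LS replicate 1 was nearest to SS for Slc4a2, Pla2g5 and Gpx8, and LS replicate 2 was nearest for Cox6b2. Slc4a2 overlaps Fastk and Gpx8 overlaps Cdc20b. Cryab, a small heat shock protein also made by oligodendrocytes, was at 22.9, 23.4 and 23.1 FPKM in SS and 17.2, 15.8 and 14.8 FPKM in LS (-0.53, SE 0.07, adjusted p = 0.0197). It was the 1 call among 15 heat shock genes, of which 8 lay wholly below SS (all tested genes: 8.63%), and it overlaps Hspb2. Car2, a carbonic anhydrase of choroid plexus and oligodendrocytes picked after its values were seen, was at 40.5, 39.5 and 40.7 FPKM in SS and 33.9, 31.2 and 29.7 FPKM in LS, without overlap (-0.35, SE 0.05, adjusted p = 0.0248).

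Further lower protein-coding genes, Cldn9, Emb, Vamp8, Aph1c, Pdgfd, Mcee, Cd164 and Fam84b, had differences from -0.95 for Cldn9 to -0.47 for Fam84b. Lower non-coding genes included some of few fragments, among which Mir7236 had 1, 1 and 2 fragments and Gm22881 had 3, 3 and 2 fragments in SS and both had 0 in each LS library. Of the 29 lower genes, 22 were nearer to SS in LS replicate 1 than in replicates 2 and 3. Their median was -0.62, -0.82 and -0.94 in LS replicates 1 to 3. For the 26 higher genes, replicate 1 was the least shifted in 11 and the most shifted in 4, and the medians were 0.63, 0.68 and 0.69. All 3 libraries entered the calls that chose these genes, so the medians are a description.

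A fit with the mean choroid plexus level as a covariate left 1 call, Lyz2 (1.33), and LS replicate 1 alone against SS left 2, Lyz2 and Defb11. The second fit has 1 LS library, whose spread is taken from the other groups and assumed to be like theirs. In these fits the differences of Adgre1 were 1.15 and 1.13, those of Ctss 0.55 and 0.56, those of Spi1 0.67 and 0.65 and those of C1qa 0.46 and 0.62. In the fit of all libraries the differences of Adgre1, Ctss, Spi1 and C1qa were 1.05, 0.54, 0.82 and 0.86. Spi1 and C1qa were thus nearer to 0 in both fits, and Adgre1 and Ctss were slightly further from it. The following lower genes were also each nearer to 0 than in the fit of all libraries. Fxyd1 was at -0.70 and -0.82 in the 2 fits, Defb11 at -1.05 and -2.015, Calml4 at -0.41 and -0.87, Steap1 at -0.63 and -1.07, Abca4 at -0.44 and -0.78, and Gpx8 at -0.27 and -0.51. The choroid plexus level differs between LS and SS, so the fit with the covariate also removes any difference that follows it.

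Most myelin transcripts had lower values in LS, and none passed the test. Of 22 tested genes of mature myelin and oligodendrocytes limma called 0 (13 at an unadjusted p below 0.05). Of the 22, 15 lay wholly below SS and 0 wholly above (all tested genes: 8.63% and 9.36%), and the median difference was -0.39. It was -0.27, -0.51 and -0.46 in LS replicates 1 to 3. The summed level was 1462 to 1602 FPKM in SS and 1049 to 1225 FPKM in LS. LS replicate 1 was nearest to SS in both this list and the choroid plexus list. In the fit with the choroid plexus covariate the difference of the myelin gene Mag was 0.01, against -0.35 without it. Over the 27 alternative settings the differences of Mbp, Mog and Mobp stayed below 0, the nearest to it being -0.11, -0.19 and -0.29. The part of choroid plexus in the myelin values was not tested further.

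Mbp, which compacts the myelin membrane, was at 349.5, 322 and 319 FPKM in SS and 276, 233 and 242 FPKM in LS (-0.40, SE 0.17, limma adjusted p = 0.355). Every LS library was below SS, replicate 1 least. Mog, on the outer surface of the sheath, was at 36.4, 38.1 and 32.9 FPKM against 27.3, 21.3 and 20.3 FPKM (-0.64, adjusted p = 0.147), Mobp at 109.6, 107 and 106 FPKM against 79.1, 63.8 and 69.4 FPKM (-0.61, adjusted p = 0.181) and Mag, which faces the axon, at 71.7, 64.2 and 62.2 FPKM against 59.2, 45.5 and 51.04 FPKM (-0.35, adjusted p = 0.432). Mal, a raft protein of late myelination picked for mention as the list's lowest difference, was at 51.1, 43.4 and 45.2 FPKM in SS and 26.8, 19.6 and 20.4 FPKM in LS (-1.06, SE 0.20, adjusted p = 0.0576).

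Gpr17, Sox10 and Olig1, which are also in the precursor list, were the 3 of the 22 genes with a difference above 0. The other 19, Bcas1 and Enpp6 among them, had differences below 0. Gpr17, a receptor of committed precursors, was at 42.1, 40.3 and 40.99 FPKM in SS and 40.4, 41.9 and 42.03 FPKM in LS, and the lineage factors Sox10 and Olig1 differed by 0.05 and 0.06. Pdgfra, the growth factor receptor of precursors, was at 10.8, 10.03 and 10.3 FPKM in SS and 10.9, 11.1 and 10.4 FPKM in LS (0.06, SE 0.04, limma adjusted p = 0.648). Of 15 tested precursor genes 0 were called (3 at an unadjusted p below 0.05). Of the 15, 4 lay wholly above SS and 0 below (all tested genes: 9.36% and 8.63%), and the median was 0.08. The difference between mature and precursor genes was not tested.

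**Figure D3:**
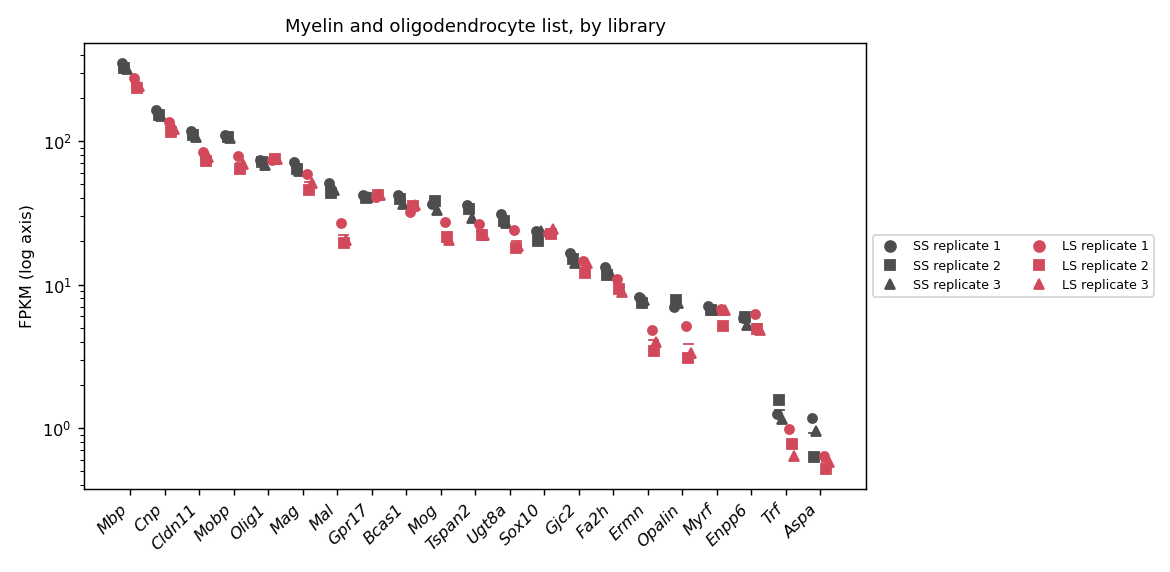
Level in FPKM, on a log axis, of 21 of the 22 genes of mature myelin and oligodendrocytes in each SS library (grey) and LS library (red), ordered by SS mean, with group means as bars. Of the 21 genes drawn, 14 have all LS libraries below all SS libraries, and those that overlap include Olig1, Gpr17 and Sox10.

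Genes of dividing cells and of young neurons tended to lie above SS without passing the test. Of 23 tested cell cycle genes limma called 0 (5 at an unadjusted p below 0.05). Of the 23, 7 lay wholly above SS and 0 below (all tested genes: 9.36% and 8.63%), and the median was 0.19. Mki67, the proliferation antigen, was at 0.893, 0.795 and 0.947 FPKM in SS and 1.43, 1.02 and 1.27 FPKM in LS (0.33, adjusted p = 0.352), and topoisomerase Top2a at 1.06, 0.913 and 0.793 FPKM against 1.55, 1.09 and 1.38 FPKM (0.37, adjusted p = 0.297). Both were without overlap, with the smallest LS value in replicate 2. Of 20 tested genes of immature neurons and neurogenesis limma called 0 (5 at an unadjusted p below 0.05), 6 lay wholly above and 1 below, and the median was 0.20. Dcx, the microtubule protein of migrating neurons, was at 9.11, 9.55 and 8.81 FPKM in SS and 11.8, 8.72 and 10.9 FPKM in LS, with overlap (0.18, adjusted p = 0.671). Dpysl3, an axon growth protein picked after its values were seen, was at 37.8, 38.4 and 38.4 FPKM in SS and 51.4, 46.5 and 51.4 FPKM in LS (0.38, SE 0.07, adjusted p = 0.0576).

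**Figure D4:**
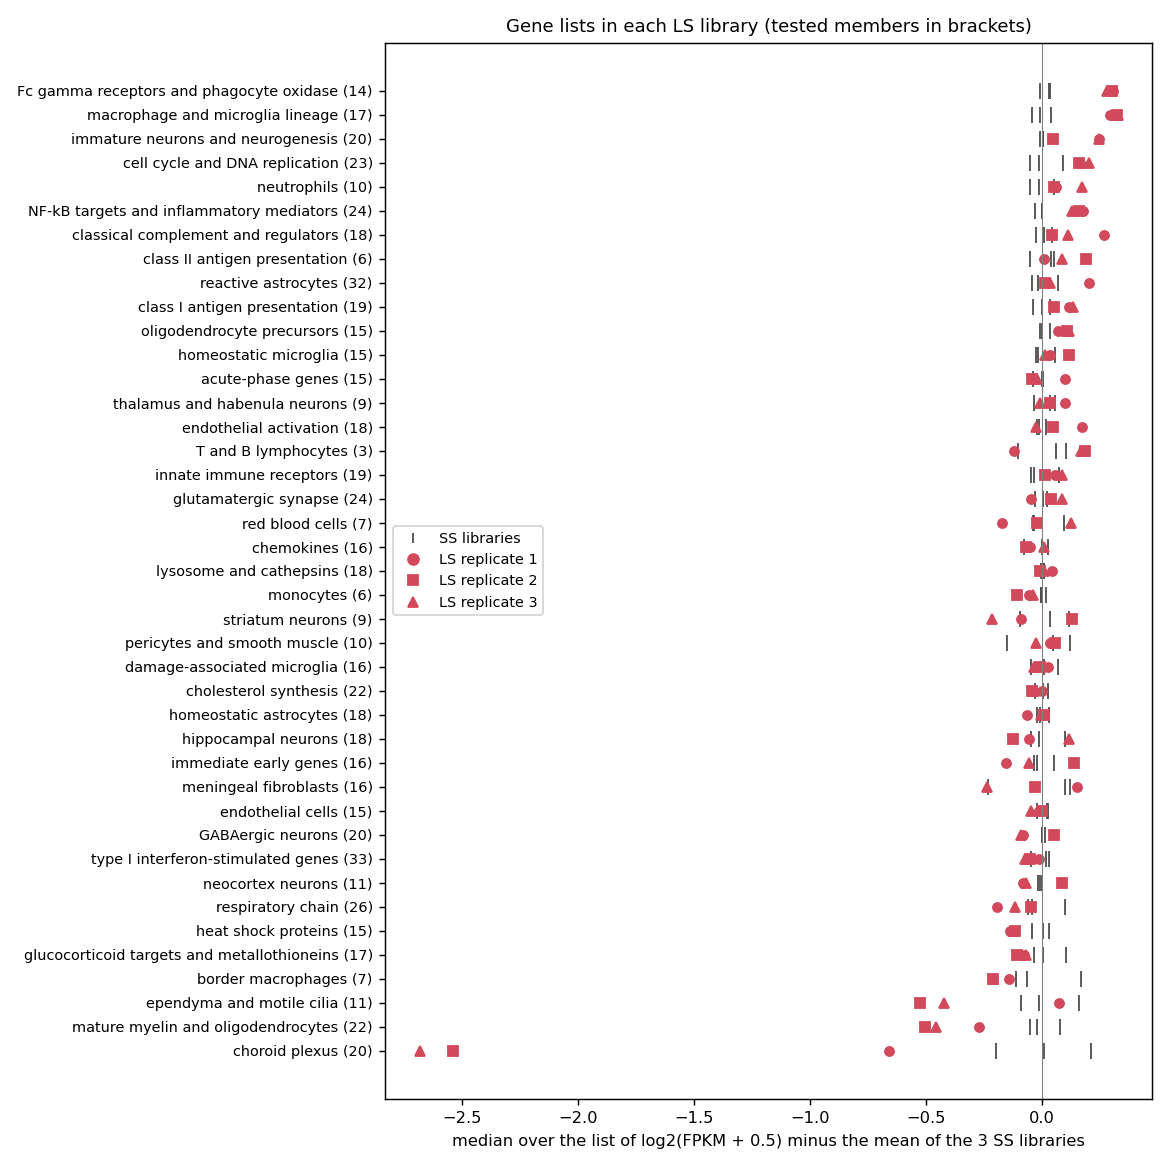
Median over each gene list of log2(FPKM + 0.5) minus the mean of the 3 SS libraries, for the SS libraries (grey ticks) and the LS replicates (red symbols), with the number of tested members in brackets. The macrophage and microglia lineage stands at 0.29 to 0.32 in the 3 LS libraries, myelin at -0.51 to -0.27 and choroid plexus at -2.68 to -0.66, with LS replicate 1 nearest to SS in the last.

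Neuronal and vascular lists gave no calls. Of 24 glutamatergic synapse genes, 20 genes of GABAergic neurons, 15 endothelial genes and 10 pericyte and smooth muscle genes limma called 0, with 1, 3, 4 and 0 at an unadjusted p below 0.05 and medians of 0.03, -0.06, -0.06 and -0.01. Of 26 tested respiratory chain genes 0 were called (10 at an unadjusted p below 0.05). Of the 26, 22 differences were below 0 and 8 genes lay wholly below SS (all tested genes: 8.63%), with a median of -0.11. Their summed level was 19800 to 22160 FPKM in SS and 17440 to 19130 FPKM in LS.

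The widest gaps between the groups, whether called or not, added few genes to those above. Among protein-coding genes with a mean of at least 1 FPKM, Nanp, a sialic acid phosphatase, was at 0.237, 0.156 and 0.255 FPKM in SS and 0.661, 2.77 and 1.35 FPKM in LS (1.42, SE 0.47, limma adjusted p = 0.239). Every LS library was above SS, and the LS libraries were spread widely. The crystallin Cryba4 was at 0.771, 0.760 and 0.775 FPKM against 1.41, 1.78 and 1.75 FPKM (0.75, adjusted p = 0.143). The cytochrome oxidase subunit Cox8b was at 2.12, 2.90 and 2.26 FPKM against 0.956, 0.552 and 0 FPKM (-1.67, adjusted p = 0.0979), listed at 0 in LS replicate 3.

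Day 3 LPS can be compared with day 3 saline a second time, among the animals that all received LPS on day 14 (LL against SL), with no library in common with LS and SS. In that comparison 588 genes were called higher (3.32%) and 966 lower (5.46%). Of the 26 genes higher in LS, 7 were also higher in LL than SL, 9 were lower and 10 were not called. Of the 29 genes lower in LS, 1 was also lower in LL, 18 were higher and 10 were not called. The interaction, (LL minus SL) minus (LS minus SS), was called for 12 of the 26 and 26 of the 29, against 5.33% of all tested genes. The interaction contains the LS minus SS difference by which these genes were chosen, so its counts are not independent of that choice.

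Ctss was higher in both, with 0.54 in LS against SS and 0.70 in LL against SL (limma adjusted p = 2.24e-05), and so were C1qc (0.40, adjusted p = 0.0121) and Pld4 (1.27, adjusted p = 3.30e-05). Lyz2 went the other way, at 75.9, 66.1 and 62.6 FPKM in SL and 19.9, 21.2 and 20.6 FPKM in LL (-1.70, adjusted p = 4.52e-06), where both groups were above SS and LS. Adgre1 was at 13.9, 14.2 and 13.6 FPKM in SL and 7.37, 7.80 and 6.81 FPKM in LL (-0.88, adjusted p = 0.000301). The single lower gene with the same direction was the small nucleolar RNA Snord104, a short transcript, at -1.15 and -0.64. Fxyd1 (0.69, adjusted p = 0.00125) and Calml4 (1.10, adjusted p = 0.0238) were higher in LL. Choroid plexus genes as a list were also higher in LL than in SL, with a median of 1.58. Of the 20, 6 were called higher (all tested genes: 3.32%).

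**Figure D5:**
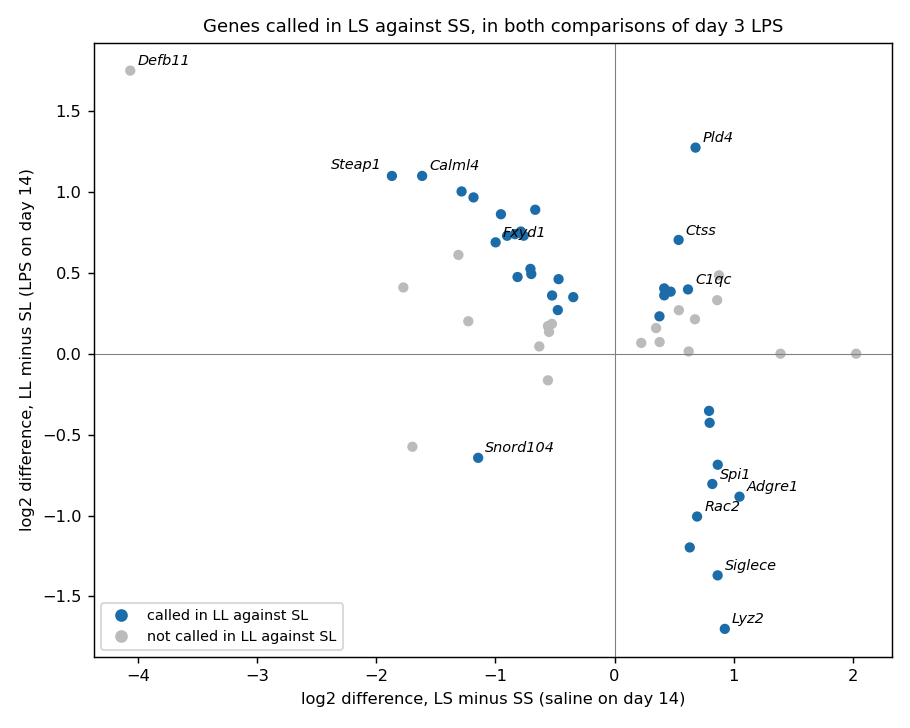
Log2 difference of the 55 called genes in LS minus SS (horizontal axis) and in LL minus SL (vertical axis), blue where LL against SL was also called. Of the 29 lower genes, 26 lie above 0 on the vertical axis, and the 26 higher genes are spread on both sides of 0.

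Most myelin genes had values below 0 in both comparisons. Their median was -0.39 in LS against SS and -0.36 in LL against SL, and 18 of 22 genes were below 0 in both, against 4521 of 17687 tested genes. Limma called 5 of the 22 lower in LL than SL and 1 higher (all tested genes: 5.46% and 3.32%). The lower ones were Mal (-0.97, adjusted p = 0.0118), Mobp (-0.74, adjusted p = 0.0232), Mog (-0.62, adjusted p = 0.0460), Cldn11 (-0.69, adjusted p = 0.0240) and the transferrin gene Trf (-1.17, adjusted p = 0.00568). The higher one was Gpr17 (0.49, adjusted p = 0.00694). Mal was at 40.6, 56.8 and 33.96 FPKM in SL and 25.2, 16.4 and 24.5 FPKM in LL. In LL against SL the choroid plexus list was higher while myelin was lower, whereas in LS against SS both were lower.

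Cell cycle genes had a median of 0.29 in LL against SL, with 8 of 23 called higher and 0 lower (all tested genes: 3.32% and 5.46%). Of the 23, 19 were above 0 in both comparisons, against 4543 of 17687 tested genes. Kif11, a mitotic motor, was at 1.07, 0.986 and 0.944 FPKM in SS, 1.79, 1.46 and 1.38 FPKM in LS, 0.744, 0.861 and 0.713 FPKM in SL and 1.62, 1.36 and 1.11 FPKM in LL. Its difference was 0.44 in LS against SS and 0.54 in LL against SL (limma adjusted p = 0.159 and 0.0173). Mki67 was called in LL against SL (0.61, adjusted p = 0.0167), as was Top2a (0.65, adjusted p = 0.0120). Genes of immature neurons had a median of 0.37, with 5 of 20 called higher and 17 of 20 above 0 in both. Dpysl3 was among them (0.42, adjusted p = 0.00330). These lists were described here after the values of both comparisons were seen, and their agreement between comparisons was not tested.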

How the data were processed

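Hippocampal polyA RNA of 12 mice was sequenced, 3 animals per group per the labels' protocols, which makes the spread one between animals. Values in the deposited table are FPKM, made by the authors for 54532 Ensembl genes. Per the submitters' processing notes, HISAT2 2.0.5, featureCounts 1.5.0-p3 and mm10 were used. The sources used here do not say how strand and shared fragments were counted, so overlapping genes and near-identical copies are uncertain. FPKM times gene length gave whole fragments within 0.01 for 100% of values above 0. Replicate pairs within SS and LS differed by more than sampling noise (chi-square per gene of 3.59 to 9.52).

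The filter kept genes that reached 0.5 FPKM in 3 or more of the 12 libraries. A gene could thus pass it through the groups given LPS on day 14 alone. Limma 3.58.1 in R 4.3.3 fitted log2(FPKM + 0.5) with a mean for each of the 4 groups (8 residual degrees of freedom), a mean trend and empirical Bayes moderation. Each adjusted p is two-sided, from limma, with Benjamini-Hochberg adjustment over the tested genes and a threshold of 0.05. Permuting 3 against 3 animals exactly cannot give a p below 0.1 and was not done. The model was tested on simulated data.

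The comparison, the 41 gene lists and the rule for named genes were chosen with earlier results of these data known. The rule took up to 12 called protein-coding genes per direction by size and up to 10 per direction by the gap between groups, all with a mean of at least 1 FPKM, every called list member, genes called in all leave-one-out fits, and a set list. Some genes are not reported here. Lists were described by counts and medians, with no test. Alternatives were 27 settings, among them quantile normalization, median centring, other pseudocounts and filters, protein-coding genes only, limma voom on the whole fragments, robust moderation, library weights, covariates, a replicate block and libraries left out.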

Additional observations from a re-analysis of the deposited data

Results flagged for a closer look

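The difference between LPS and saline on day 3 was not the same in animals given saline and animals given LPS on day 14 for 35 of the 56 named genes, by a limma test of the interaction (LL minus SL) minus (LS minus SS) with an adjusted p below 0.05. Of all tested genes 5.33% passed this test. Many of the named genes were chosen for their LS minus SS difference, which the interaction contains, so this count is not independent of that choice. The log2 interaction stands in brackets after each gene. It was positive for 21 genes and negative for 14.

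Among genes higher in LS than SS, it was negative for Adgre1 (-1.93), Lyz2 (-2.63), Spi1 (-1.63), Rac2 (-1.70), Siglece (-2.23), Pik3ap1 (-1.55), Fyb (-1.23) and Ptpn6 (-1.15). Inflammatory and reactive astrocyte genes that were not called in LS against SS also had negative values: Cd14 (-3.68), Cxcl10 (-4.64), Gfap (-2.07), Il1b (-3.78), Lcn2 (-5.08) and Tnf (-3.93). The microglial genes P2ry12 (2.03) and Trem2 (1.18) had positive values.

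Genes of the choroid plexus list had positive values: Ttr (6.32), Defb11 (5.82), Folr1 (4.91), Enpp2 (4.28), Slc4a5 (3.99), Kl (2.97) and Calml4 (2.71). Other genes with lower values in LS were positive as well: Mfrp (4.11), Steap1 (2.97), Abca4 (2.29), Cox8b (2.18), Pla2g5 (2.15), Fxyd1 (1.69), Cox6b2 (1.63), Gpx8 (1.57), Pon3 (1.54), Slc4a2 (1.29), Cd59a (1.23) and Cryab (0.71). The summed level of the choroid plexus list was 2387 to 2846 FPKM in SS, 42.3 to 1252 FPKM in LS, 699.6 to 971 FPKM in SL and 2432 to 3508 FPKM in LL, and its part in these values was not tested.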

How the results depend on the processing

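The count of 55 called genes was 83 with a filter of 2 FPKM, 170 with protein-coding genes only, 169 with limma voom, 203 with library weights, 0 with SS and LS alone, 1 with the choroid plexus covariate and 2 without LS replicates 2 and 3. It ranged from 5 to 205 with libraries left out one at a time. It lay between 38 and 64 under the other settings, and the replicate block gave 41. The count of 8 genes called the same way in LL against SL was 4 with no filter, 17 with a filter of 2 FPKM, 25 with protein-coding genes only, 28 with limma voom, 24 with library weights, 0 with the covariate and 0 without LS replicates 2 and 3, and it ranged from 1 to 13 with libraries left out. It has no value with SS and LS alone, and the block gave 6. The cause of these changes was not tested. Equal replicate numbers in SS and LS had deviations that correlated at 0.094, 0.029 and 0.0194, and unequal numbers at -0.0874 to 0.0632. The labels do not say whether equal numbers share a litter or day, and these values cannot settle it.

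Of the 56 named genes, these changed sign: Il1b with quantile normalization (-0.0154), Folr1 (0.0268), Mag (0.0125) and Ttr (0.72) with the covariate, and Tlr4 without LS replicates 2 and 3 (0.0131) and with libraries left out (-0.08575 to 0.0556). None of these was called. Calls of single genes in LL against SL were not recomputed with libraries left out. Except in long genes, levels below 0.1 FPKM rest on a few fragments. Differences between SS and LS where both are at such levels could hardly be detected at this depth. Adgre1, Ctss, Fxyd1 and Lyz2 were called in 24 of 27 settings.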
